A study of Mus musculus with 10 samples.

Results

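The mammary tumours named ILn were compared with those named MOLF. Arrays were assigned by strain name in the sample titles, 2 with ILn and 2 with MOLF, so that 4 of the 10 arrays of the series were compared over all genes. Each array had measured total RNA, labelled with biotin, from a mammary tumour of an adult female mouse aged 90 days on the Affymetrix mg_u74av2 oligonucleotide array. The series title places all mice on the MMTV-PyMT transgene, an oncogene of polyomavirus (its middle T antigen) switched on in mammary epithelium by the promoter of mouse mammary tumour virus. ILn and MOLF thus share that transgene, and no mouse without it was measured. The strain name stands in the titles alone. The strain field of all 10 arrays reads FVB/Nj, and the labels do not spell out ILn or MOLF or say whether the mice were inbred or crossed. The titles call each array a mix, lettered A or B, and do not say what was mixed or how many animals it holds. Since nothing calls A and B separate animals, the p-values rest on an array-to-array spread that may be technical.

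Tumours of this transgene are adenocarcinomas of luminal epithelium, and a piece of such a tumour also holds stroma, vessels, immune cells and whatever tissue lies against the gland. Salivary and lacrimal glands secrete a large family of small proteins, among them prolactin-induced protein, kallikreins, amylase, secretoglobins and odorant-binding lipocalins, and several of these genes are also known in skin glands and the breast. Neutrophils and the acute phase response supply antibacterial proteins such as peptidoglycan recognition protein 1 and the serum amyloids. Interferon signalling induces a set of genes through interferon-stimulated response elements and raises antigen presentation on MHC molecules.

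The promoters of 6 genes are shown, because they set side by side secretory genes that were higher in ILn (Pip, Obp1a, Scgb1b27), antibacterial and acute phase genes that were lower (Pglyrp1, Saa2) and Ifit3, an interferon response gene that did not pass the test. Each is the 200 bases before the annotated start in RefSeq GRCm38.p6, a reference genome and not the sequence of ILn or MOLF, printed 5′ to 3′ on the gene's strand. An entry was found for 40 of 59 named genes. Capitals mark matches to 3 motifs on either strand. The TATA box was searched as TATAAA. For the interferon-stimulated response element the letters were GAAANNGAAA. For the C/EBP motif they were TTNNGNAAT. No matches of different motifs overlapped in these windows.
Pip, chr6:41847349-41847548, plus strand: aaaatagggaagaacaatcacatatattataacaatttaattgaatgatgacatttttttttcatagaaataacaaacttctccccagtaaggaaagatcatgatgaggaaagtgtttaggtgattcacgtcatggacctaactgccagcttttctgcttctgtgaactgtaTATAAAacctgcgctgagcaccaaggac
Obp1a, chrX:78091375-78091574, minus strand: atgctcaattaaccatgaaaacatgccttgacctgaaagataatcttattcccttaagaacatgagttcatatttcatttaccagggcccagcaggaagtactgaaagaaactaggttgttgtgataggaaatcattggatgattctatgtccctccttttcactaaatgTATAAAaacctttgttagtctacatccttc
Scgb1b27, chr7:34021281-34021480, plus strand: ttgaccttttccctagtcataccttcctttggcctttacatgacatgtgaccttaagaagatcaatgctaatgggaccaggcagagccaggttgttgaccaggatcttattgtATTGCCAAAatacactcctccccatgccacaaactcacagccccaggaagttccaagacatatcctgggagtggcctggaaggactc
Pglyrp1, chr7:18884490-18884689, plus strand: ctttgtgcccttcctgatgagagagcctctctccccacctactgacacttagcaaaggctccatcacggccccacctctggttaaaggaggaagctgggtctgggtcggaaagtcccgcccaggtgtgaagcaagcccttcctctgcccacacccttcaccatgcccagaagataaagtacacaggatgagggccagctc
Saa2, chr7:46751633-46751832, plus strand: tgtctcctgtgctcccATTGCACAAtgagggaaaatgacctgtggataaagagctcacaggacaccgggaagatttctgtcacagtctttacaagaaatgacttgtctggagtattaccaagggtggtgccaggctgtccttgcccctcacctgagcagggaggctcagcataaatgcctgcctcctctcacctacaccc
Ifit3, chr19:34583329-34583528, plus strand: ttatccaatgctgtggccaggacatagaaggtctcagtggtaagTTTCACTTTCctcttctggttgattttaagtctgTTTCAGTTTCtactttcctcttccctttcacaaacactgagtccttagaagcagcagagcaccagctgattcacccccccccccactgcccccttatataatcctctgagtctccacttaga

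The TATA box letters began 28 bases before the start in Pip and 30 bases before it in Obp1a. They were found in 9.96% of 32851 promoter windows of the same length. The response element letters occurred at 156 and at 122 bases before the start of Ifit3, against 2.27% of all windows with at least 1 match. The C/EBP letters began 184 bases before the start of Saa2 and 87 before that of Scgb1b27, and 7.83% of all windows held them. The Pglyrp1 window held none of the 3 letter strings. These matches describe the letters in these windows only.

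MOLF A stood apart from most other arrays. Across 9899 tested probe sets normalised log2 intensity correlated at 0.974 within ILn and at 0.868 within MOLF, while MOLF A correlated at 0.927 with the array NZB B of another strain name. NZB B stood apart too, at 0.812 to 0.852 with every array but MOLF A, and it enters the spread shared by all names. The MOLF arrays differed by more than 2-fold at 1983 probe sets and the ILn arrays at 222. Because of this, a difference is described as agreeing with MOLF B only where both ILn arrays lay beyond both MOLF arrays and at least 1 log2 unit beyond MOLF B. The 3′ to 5′ log2 ratio of the beta-actin control probe sets was 0.22 and 0.28 on the ILn arrays and 0.78 and 0.60 on the MOLF arrays, so RNA quality by this measure moved with the comparison, and its part in the results was not tested. The hybridisation spike-in controls were 3.00 log2 units above the array's trimmed mean on MOLF A and between 0.89 and 1.36 on ILn A, ILn B and MOLF B. They were at 3.13 on LP A, which shares the title date of MOLF A, and at 0.72 on NZB B. ILn B and MOLF B share the date in their titles, whereas ILn A and MOLF A each carry another. Epithelial keratins of the labelled tissue were present on all 4 arrays: Krt8 lay between 10.84 and 11.38 and Krt18 between 10.18 and 10.97 on the log2 scale, far above the floor of 4.75.

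At an adjusted p under 0.05 (limma, Benjamini-Hochberg), 40 probe sets, or 0.404% of those tested, differed between ILn and MOLF. Of these, 30 were higher in ILn (0.303%) and 10 were lower (0.101%), and all 40 met the rule for MOLF B. The differences ran from 1.44 to 4.24 log2 units among the higher probe sets and from -1.23 to -3.85 among the lower ones, which is 2.35-fold to 18.9-fold in size. A single gene symbol was attached to 32 of the 40, giving 23 genes higher and 8 lower in ILn, while 5 had several symbols and 3 had none. With each gene taken only at its probe set of highest mean, 20 genes were higher and 6 were lower. The higher genes were led by secretory proteins of salivary and related glands, and also included immunoglobulin, MHC class II, globin, keratin and collagen genes. The lower genes included Pglyrp1, Saa2, Ctse and D17H6S56E-5. The count depended on single arrays, being 6 without ILn A, 7 without ILn B, 14 without MOLF A and 19 without MOLF B, with the lone array of a group then assumed to vary like the others. With the title date as a block it was 6, namely Acta1, Chia1, Scgb1b27, Pglyrp1, D17H6S56E-5 and a probe set with several symbols.

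**Figure D1:**
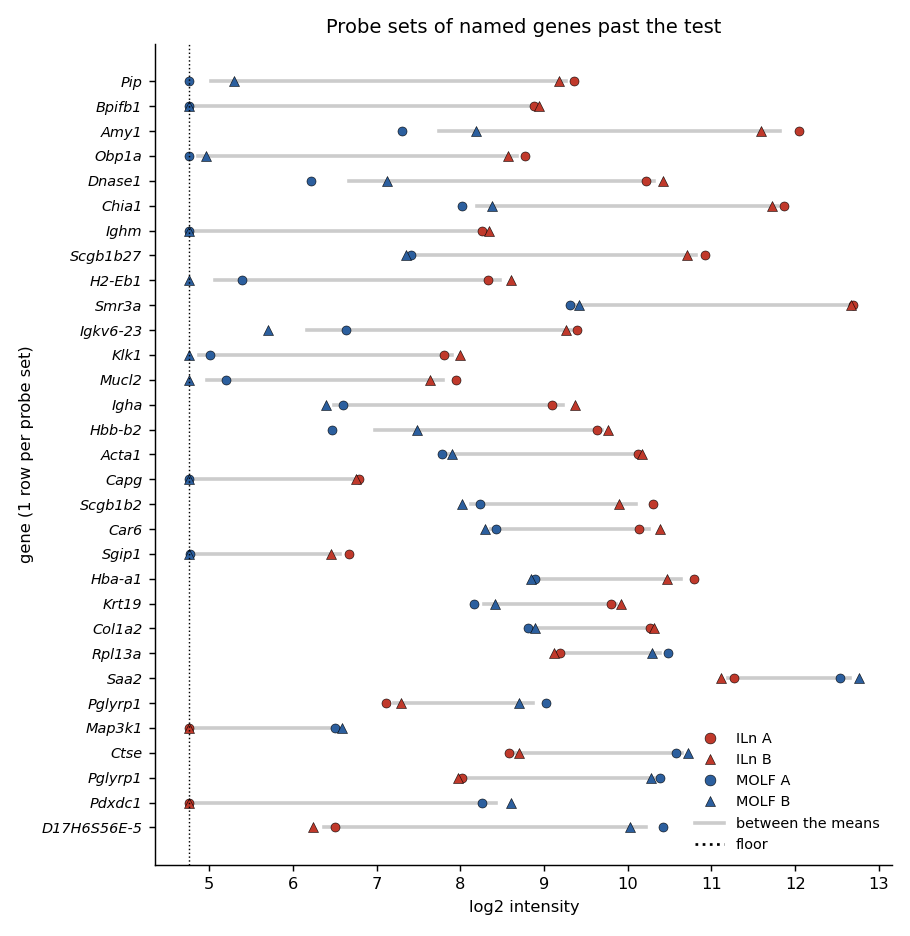
Probe sets with 1 gene symbol past the test, 1 row each, with normalised log2 intensity on the x axis for the 2 ILn arrays (red) and the 2 MOLF arrays (blue), A as circles and B as triangles; the grey bar joins the group means and the dotted line is the floor of 4.75. In every row the ILn and MOLF arrays are apart, from Pip with ILn 4.24 higher to D17H6S56E-5 with ILn 3.85 lower; the row of a microRNA locus is left out.

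Size without a test gave a wider set. In all 4 pairings of an ILn with a MOLF array, 149 probe sets (1.51%) differed by at least 2-fold in one direction, 104 higher in ILn (1.05%) and 45 lower (0.455%). This count was 234 without ILn A, 311 without ILn B, 263 without MOLF A and 1703 without MOLF B. The mean of ILn lay more than 2-fold from MOLF A at 2125 probe sets and from MOLF B at 394. At 212 probe sets both MOLF arrays were passed in the same direction and at 17 in opposite directions. The other 1896 of the MOLF A set were within 2-fold of MOLF B.

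**Figure D2:**
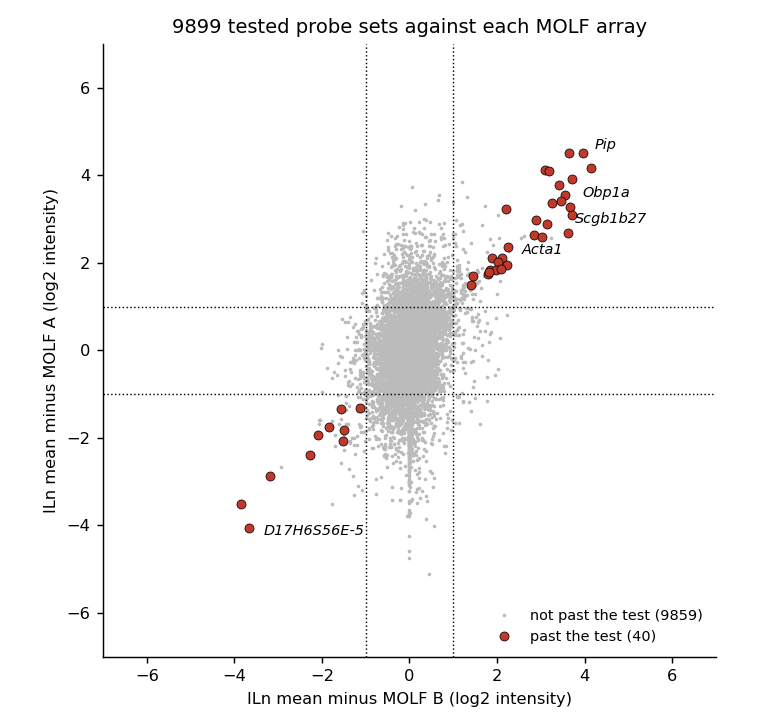
Each point is a tested probe set, with the ILn mean minus MOLF B on the x axis and the ILn mean minus MOLF A on the y axis, both in log2 intensity; dotted lines mark 2-fold and red points passed the test. The cloud is taller than it is wide, with 2125 probe sets beyond 2-fold against MOLF A and 394 against MOLF B, and the 40 red points lie in the corners where both differences have the same sign.

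Genes of salivary and lacrimal secretion had the largest median difference of all lists. As for every list here, the members were chosen with earlier results of these data known. This list also holds Pip, a marker given with the comparison. The shares below therefore describe the list and carry no test. Of 22 measured members, 8 rose in ILn, none fell, and 11 were at least 2-fold higher in every pair, against 0.282% of all 7098 genes that passed in the higher direction and 1.03% that were 2-fold higher in every pair. The median difference over the 22 genes was 1.38 log2 units, beside 0 over all genes, and it was 1.69 against MOLF A alone and 1.30 against MOLF B alone. Pip, prolactin-induced protein, a secreted protein of exocrine glands, measured 9.35 and 9.18 on the ILn arrays and 4.75 (the floor) and 5.29 on the MOLF arrays. Both ILn arrays were far above both MOLF arrays. The difference was 4.24 ± 0.58 (SE, n = 2 arrays each), with adjusted p = 0.036, and the call held in 4 of 14 alternative settings. The 18.9-fold step is understated, since MOLF A was at the floor. Amy1, salivary amylase, measured 12.04 and 11.60 on ILn against 7.30 and 8.18 on MOLF, with a difference of 4.08 ± 0.33 (adjusted p = 0.00412) that passed in 11 of 14 settings. Chia1, the acidic chitinase of secretions and stomach, was similarly separated at 11.87 and 11.72 against 8.02 and 8.38. Its difference of 3.60 ± 0.21 (adjusted p = 0.000667) passed in 13 of 14 settings.

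Dnase1, a secreted endonuclease, measured 10.22 and 10.42 in ILn and 6.21 and 7.12 in MOLF. Smr3a, a submaxillary gland protein regulated by androgen, measured 12.69 and 12.67 in ILn and 9.31 and 9.42 in MOLF. The ILn arrays of both genes lay above both MOLF arrays by more than 3 log2 units (Dnase1 3.65 ± 0.37, adjusted p = 0.0109; Smr3a 3.31 ± 0.45, adjusted p = 0.0346). Dnase1 passed in 10 and Smr3a in 4 of 14 settings. Klk1, tissue kallikrein, Mucl2, a mucin-like protein, and Car6, the secreted carbonic anhydrase, rose by 3.01, 2.81 and 1.90. These calls held in 5, 4 and 2 of 14 settings. The Klk1 probe set can share signal with other kallikreins of that family, and 1 MOLF array was at the floor for Klk1 and for Mucl2, so those steps are understated. Another Mucl2 probe set was 1.78 higher, with both MOLF arrays at the floor, and did not pass. Members that did not pass included Bpifa2, a salivary antimicrobial protein, at 13.12 and 13.08 in ILn against 11.57 and 11.83 in MOLF (adjusted p = 0.53). Klk1b1 (a difference of 2.42) and Klk1b5 (1.91) were at least 2-fold higher in every pair without passing. Mucl1 was at the floor on all 4 arrays and Agr2 differed by -1.70, with MOLF A alone at 8.23. Less RNA per cell and fewer cells of a type cannot be told apart in these bulk samples.

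The other strain names place these levels. The mean of the 22 genes, taken relative to their mean over 9 arrays, was 1.28 and 1.26 log2 units on the ILn arrays, -0.47 and -0.27 on the MOLF arrays, between -1.25 and -0.9965 on the 4 LP and NZB arrays and 2.81 on the FVBn array. By this mean MOLF sat between ILn and these 4 arrays, but single genes differed. Pip had means of 5.02 in MOLF, 5.46 in LP and 5.29 in NZB. Car6 measured 10.67 and 9.89 on the LP arrays, near ILn, against 8.43 and 8.29 on the MOLF arrays. Amy1 and Dnase1 were at the floor on all 4 LP and NZB arrays, and Chia1 lay between 5.64 and 5.98 there. FVBn measured 11.67 for Amy1 and 11.71 for Chia1, beside the ILn values, and 12.57 for Mucl2, above them.

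**Figure D3:**
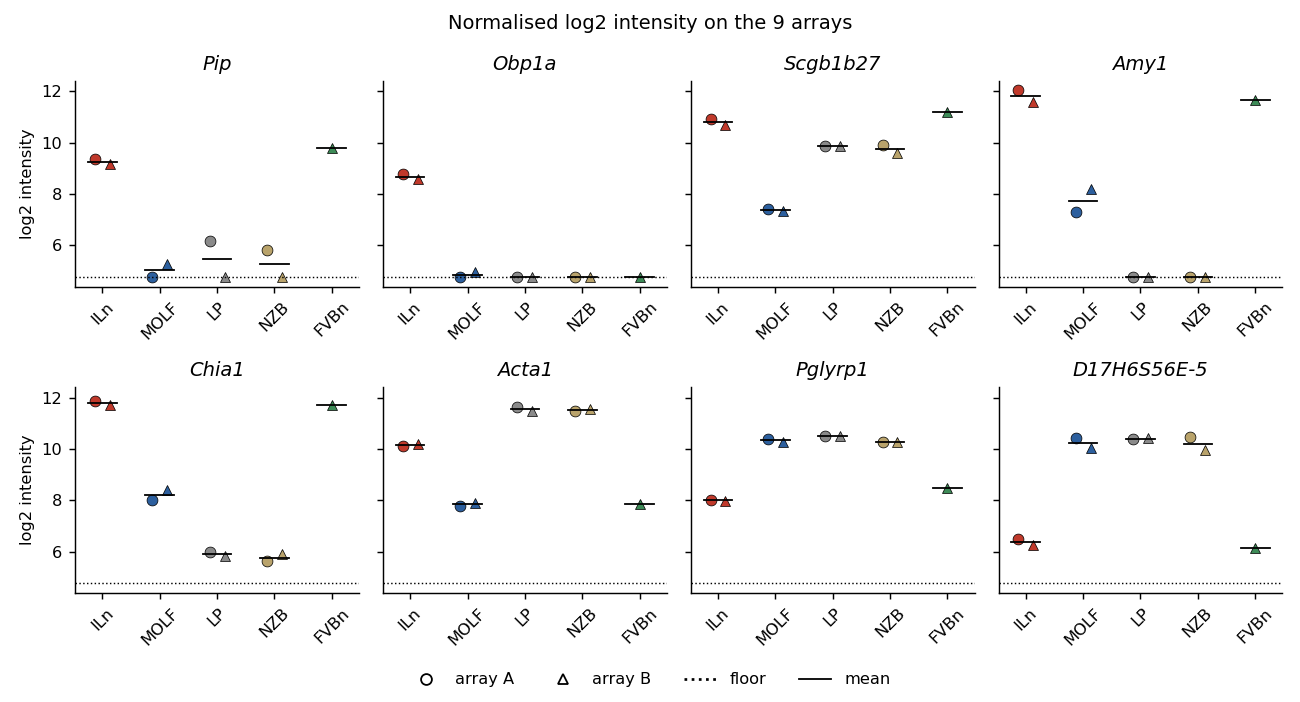
Normalised log2 intensity (y axis) of 8 genes on the 9 arrays with a strain name, circles for A and triangles for B, with the group mean as a bar and the floor dotted. Pip, Amy1 and Chia1 are high in ILn and FVBn, Obp1a is above the floor by more than 1 unit in ILn only among these arrays, and Pglyrp1 and D17H6S56E-5 are low in ILn and FVBn and high in MOLF, LP and NZB.

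In the list of urinary, odorant-binding and secretoglobin proteins, most of them small secreted carriers of pheromones and other lipids, 3 of 11 measured genes rose in ILn (0.282% of all genes did) and none fell. Obp1a, an odorant-binding lipocalin best known from nasal glands, measured 8.77 and 8.57 on the ILn arrays and 4.75 and 4.97 on the MOLF arrays. It was at the floor on every LP, NZB and FVBn array as well, so the ILn arrays and, by a little, MOLF B were the only ones of the 9 above it. The difference was 3.81 ± 0.30 (adjusted p = 0.00338) and passed in 11 of 14 settings, being fitted in 13 of them. Scgb1b27, a secretoglobin of the androgen-binding protein family, measured 10.92 and 10.71 in ILn and 7.41 and 7.36 in MOLF. Here MOLF was the lowest of all groups, since LP and NZB lay between 9.59 and 9.93 and FVBn at 11.18. The difference of 3.43 ± 0.17 (10.8-fold, adjusted p = 0.000527) passed in 14 of 14 settings. Scgb1b2, a related subunit, was higher by 1.97 ± 0.21 (adjusted p = 0.0132) and passed in 7 of 14 settings. These genes belong to a family of near-identical copies, so the signal may be shared among copies. The median of the 11 genes was 0.28 and its sign turned in 5 of 14 settings: Lcn2, Ptgds, Mup3, Mup5 and Vnn1 had differences between -0.49 and -0.15 and none passed.

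Bpifb1, a secreted protein of the BPI fold known from airway and mouth, measured 8.88 and 8.94 in ILn and was at the floor on both MOLF arrays. This makes it at least 17.8-fold higher in ILn (adjusted p = 0.00557), a call held in 11 of 14 settings. NZB measured 6.59 and 7.13 for it, and LP was at the floor.

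Antibody genes were higher in ILn at some probe sets only. Igha, the IgA heavy chain, measured 9.09 and 9.37 in ILn and 6.60 and 6.39 in MOLF, a difference of 2.73 ± 0.36 (adjusted p = 0.0316). Another Igha probe set was 0.66 higher, with both MOLF arrays at the floor, and did not pass. A light chain variable segment probe set, Igkv6-23, rose by 3.15 ± 0.33, and its design allows signal from related segments. Of 6 probe sets of Ighm, the IgM heavy chain, 1 was higher in ILn, with both MOLF arrays at the floor (at least 11.7-fold). All LP and NZB arrays were at the floor there too, so that probe set entered the test through the ILn arrays. The other 5 did not pass. The calls held in 6 of 14 settings for Igha, 9 for Igkv6-23 and 10 for that Ighm probe set, which was fitted in 11. Over the B cell and immunoglobulin list only Igha of 22 genes passed (0.282% of all genes rose). B cell surface genes had differences of both signs and none passed. Ms4a1 (CD20) measured 6.73 and 6.80 in ILn and 6.69 and 6.73 in MOLF. Cd79a measured 6.71 and 6.67 in ILn against 7.44 and 6.96 in MOLF. Cd79b differed by -0.56, while Fcer2a was 0.52 higher in ILn. Cd22 was at the floor on all 4 arrays, and Jchain (1.20 higher) did not pass. The list median was 0.03.

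Most antigen presentation genes did not pass, and the medians of their lists were above 0. H2-Eb1, the beta chain of an MHC class II molecule, measured 8.33 and 8.61 in ILn and 5.39 and 4.75 in MOLF. Both ILn arrays exceeded both MOLF arrays by 2.94 or more, and the difference was 3.40 ± 0.46 (adjusted p = 0.0346), held in 3 of 14 settings. LP and NZB resembled ILn at this gene, between 7.34 and 9.28. It was the only 1 of 15 class II list members to pass (0.282% of all genes rose). H2-Ab1 was 1.30 higher, Cd74, the invariant chain, 0.96 higher and H2-Aa 0.74 higher, with no overlap between the groups in any of the 3 and none past the test, while H2-DMb2 differed by -1.25. Of the 15 members, 7 did not overlap in the higher direction (19.8% of all genes did so). In the lower direction 3 did not overlap, against 1205 of all 7098 genes. The list median was 0.44. Among 19 class I genes none passed, 12 did not overlap in the higher direction (19.8% of all genes did so) and the median was 0.42. B2m, the shared light chain, measured 10.61 and 10.67 in ILn against 10.01 and 9.72 in MOLF (adjusted p = 0.18), and H2-K1 measured 11.78 and 11.77 against 11.69 and 11.74.

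None of 36 interferon response genes passed, although 4 were at least 2-fold higher in ILn in every pair (1.03% of all genes were) and 19 did not overlap in the higher direction (19.8% of all genes). Their median difference was 0.49, which was 0.70 against MOLF A alone and 0.29 against MOLF B alone. Ifi202b, an interferon-inducible DNA-binding protein, measured 7.30 and 7.32 in ILn with both MOLF arrays at the floor (adjusted p = 0.20). Gbp3, a guanylate-binding protein, measured 7.98 and 7.84 against 6.53 and 6.71 (adjusted p = 0.06). Ifit3, whose promoter with 2 response element matches is printed above, measured 6.36 and 6.37 against 5.23 and 4.75 (adjusted p = 0.33). These 3 and Ifi204 made up the 4. Irf7, a transcription factor of the response, was split by MOLF, with 5.25 on MOLF A and 7.72 on MOLF B against 8.16 and 8.21 in ILn. Mx2 ran the other way at 5.94 and 6.03 in ILn against 7.12 and 6.61. The response element letters occurred in 12 of 38 promoter windows of this list (31.6%), against 2.27% of all windows. None of 23 windows of the salivary list held them, which at that share says little about the salivary list. The LP arrays were higher than ILn over this list, with a mean 0.62 and 0.74 above the 9-array mean against -0.13 and -0.18 in ILn and -0.73 and -0.53 in MOLF.

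Of 39 skeletal muscle genes 1 passed, against 0.282% of all genes that rose. This was Acta1, the skeletal muscle actin, which measured 10.12 and 10.17 in ILn and 7.78 and 7.90 in MOLF. The arrays of each name agreed within 0.12 and lay well apart, by 2.31 ± 0.14 (4.95-fold, adjusted p = 0.000667), a call that held in 14 of 14 settings. It was higher still, between 11.48 and 11.64, on the LP and NZB arrays and at 7.86 on FVBn. Pygm, muscle glycogen phosphorylase, and the fast myosins Myh4 and Myh1 were 2-fold higher in every pair, at differences of 1.59, 1.52 and 1.41 with adjusted p = 0.22, 0.17 and 0.19. No overlap in the higher direction was seen for 18 of 39 genes, against 19.8% of all genes. The list median was 0.60, and 0.33 and 0.34 against MOLF A and MOLF B alone. Its mean relative to the 9 arrays was -0.24 and -0.30 in ILn and -0.65 and -0.84 in MOLF, both below LP and NZB (0.52 to 0.98).

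**Figure D4:**
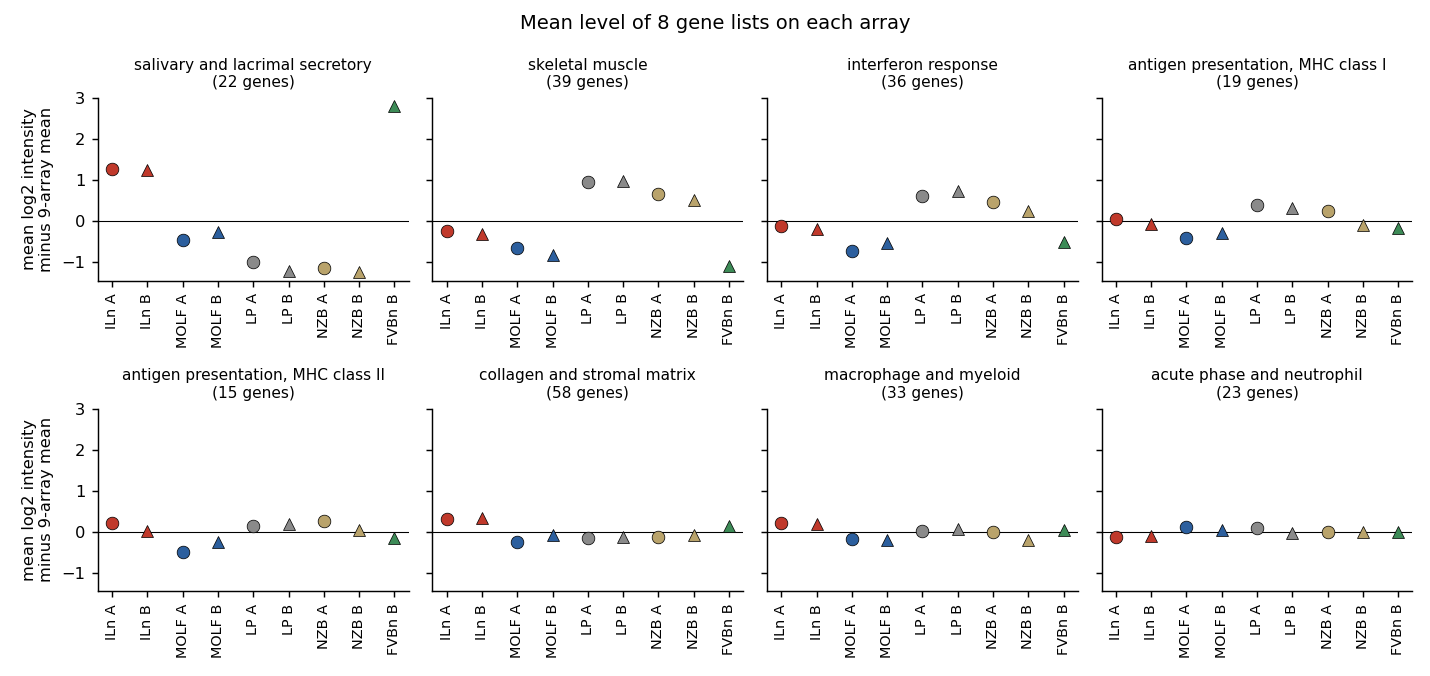
Mean log2 intensity of 8 gene lists on each array (y axis), relative to each gene's mean over the 9 arrays, with 1 panel per list and arrays on the x axis; colours mark the strain names, circles A and triangles B. ILn lies above MOLF by the most in the salivary list (1.28 and 1.26 against -0.47 and -0.27) and below MOLF on both arrays in the acute phase list.

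Stromal, vascular and myeloid lists had medians above 0 with no member past the test at the probe set used for the list. Over 58 collagen and matrix genes the median was 0.51, 31 did not overlap in the higher direction (19.8% of all genes did so). Col1a2, the second chain of type I collagen, measured 10.27 and 10.31 in ILn and 8.80 and 8.89 in MOLF at the probe set that passed (1.44 ± 0.17, adjusted p = 0.0189), a call held in 4 of 14 settings. Its other probe set had the opposite sign, -0.56, and did not pass. Lox, lysyl oxidase, Thbs2 and Col11a1 were 2-fold higher in every pair, and Col1a1 was 1.32 higher with 11.17 and 11.07 in ILn against 9.43 and 10.17 in MOLF. Of 33 macrophage and myeloid genes none passed and the median was 0.40. The chemokine Ccl8 measured 8.27 and 7.84 in ILn against 4.75 and 6.32 in MOLF, and C1qb, a complement subunit made by macrophages, 8.94 and 8.91 against 7.56 and 8.17. Arg1 went the other way, at 8.99 and 8.90 against 9.59 and 9.79. Of 25 endothelial genes none passed, with a median of 0.39. T and NK cell genes had a median of -0.15 and no member past the test.

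Of 12 erythroid genes 2 rose in ILn (0.282% of all genes did), both of them globins, and none fell. Hbb-b2, a beta globin, measured 9.63 and 9.76 in ILn and 6.47 and 7.48 in MOLF (2.72 ± 0.39, adjusted p = 0.0439). Hba-a1, alpha globin, measured 10.79 and 10.47 against 8.89 and 8.84 (1.76 ± 0.18, adjusted p = 0.0109). Both ILn arrays were above both MOLF arrays for each, and the calls held in 2 of 14 settings for Hbb-b2 and 6 for Hba-a1. Alas2, the erythroid enzyme of haem synthesis, measured 6.18 and 6.38 in ILn against 4.75 and 6.36 in MOLF, and Klf1, an erythroid transcription factor, was lower in ILn in every pair by at least 2-fold without passing (-2.06, adjusted p = 0.58). The list median of 0.19 turned sign in 2 of 14 settings.

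Of the other genes that rose, Capg, an actin-capping protein, was at the floor on both MOLF arrays (at least 4.03-fold higher), and Sgip1, an endocytic adaptor, rose by 1.80. They passed in 4 and 2 of 14 settings. The Capg probe set was at the floor on 6 of the 9 arrays, and any other probe sets of Capg and Sgip1 are not given here. Krt19, a keratin of luminal epithelium, measured 9.79 and 9.92 in ILn and 8.16 and 8.41 in MOLF (1.57 ± 0.19, adjusted p = 0.0196), a call held in 3 of 14 settings. Another Krt19 probe set was 1.09 higher and did not pass. Krt19 was the only 1 of 24 epithelial genes to pass (0.282% of all genes rose), and the list median was 0.00. Epcam measured 9.48 and 9.06 in ILn against 8.85 and 8.53, and Cdh1 8.08 and 8.04 against 9.04 and 8.34, neither past the test.

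Lower genes in ILn were fewer. Pglyrp1, peptidoglycan recognition protein 1, an antibacterial protein of neutrophil granules, measured 8.02 and 7.97 in ILn and 10.39 and 10.27 in MOLF. All values of 1 name were within 0.12 of each other, far less than the difference of -2.33 ± 0.13 (5.04-fold, adjusted p = 0.000667), which passed in 13 of 14 settings. A second probe set of Pglyrp1 differed by -1.66 ± 0.22 (adjusted p = 0.0346) and passed in 2 of 14. LP and NZB matched MOLF here, between 10.25 and 10.52, and FVBn was at 8.47, near ILn. Saa2, serum amyloid A, an acute phase protein, measured 11.27 and 11.12 in ILn and 12.54 and 12.76 in MOLF (-1.46 ± 0.15, adjusted p = 0.0109) at a probe set that can share signal with other serum amyloid genes, and this call held in 5 of 14 settings. The other Saa2 probe set differed by -2.80 and did not pass (adjusted p = 0.264). Pglyrp1 and Saa2 were the 2 of 23 acute phase and neutrophil genes to fall (0.0845% of all genes fell), and none rose.

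The rest of that list had differences of both signs. Saa3 was 2-fold lower in every pair (-1.66, adjusted p = 0.37), and S100a8, a calcium-binding protein of neutrophils, measured 7.42 and 6.91 in ILn against 8.55 and 7.94 in MOLF. Haptoglobin (Hp) was 2-fold higher in every pair, at 9.57 and 9.56 against 7.76 and 8.56, and lactoferrin (Ltf) was 0.92 higher (adjusted p = 0.05). Defining neutrophil genes were measured too: Mpo was at the floor on all but MOLF A (5.71), Elane lay between 6.38 and 6.97, and Csf3r between 7.67 and 8.58. The list median was -0.36, and -0.16 against MOLF B alone.

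D17H6S56E-5 measured 6.50 and 6.24 in ILn and 10.42 and 10.03 in MOLF. LP and NZB lay with MOLF between 9.96 and 10.45 and FVBn with ILn at 6.13. The difference was -3.85 ± 0.23 (14.4-fold, adjusted p = 0.000667) and passed in 14 of 14 settings. Ctse, cathepsin E, an aspartic protease, measured 8.58 and 8.70 against 10.58 and 10.72 (-2.01 ± 0.19, adjusted p = 0.00947). It was the only 1 of 15 cathepsin list genes to pass (0.0845% of all genes fell), and the call held in 7 of 14 settings. Of its other probe sets, neither of which passed, 1 differed by -1.88 (adjusted p = 0.08) and another by 0.35. Rpl13a, a ribosomal protein, differed by -1.23, against a list median of -0.11. It was the only 1 of 31 ribosomal genes to pass (0.0845% of all genes fell). Its call held in 2 of 14 settings.

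Like Ctse, the genes Pdxdc1 and Map3k1 passed at 1 of 3 probe sets, in 11 and 4 of 14 settings. The Map3k1 probe set was fitted in 10 of these settings. Pdxdc1, named for a pyridoxal-dependent decarboxylase domain, was at the floor on both ILn arrays at that probe set and at 8.25 and 8.60 on the MOLF arrays (at least 12.8-fold lower in ILn), while its other probe sets differed by 1.22 and 0.05 in the higher direction. Map3k1, a kinase of the MAPK cascade, was at least 3.46-fold lower in ILn at 1 probe set, while the others differed by -1.50 and 0.17. For both genes the probe sets therefore disagreed. The Map3k1 probe set that passed was at the floor on 7 of the 9 arrays, so it entered the test through the 2 MOLF arrays alone. A probe set annotated to a microRNA locus also fell, and its value is not given because the match to the microRNA was not made.

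The pair of arrays that share a title date, ILn B and MOLF B, were compared by size, with no test and each gene taken at its probe set of highest mean level. The largest steps up were in Bpifb1 (4.19), Pip (3.89), H2-Eb1 (3.86), Obp1a (3.60) and Igkv6-23 (3.55), where Bpifb1 and H2-Eb1 are lower bounds because MOLF B was at the floor. The largest steps down were in D17H6S56E-5 (-3.79), Pglyrp1 (-2.30), Saa-ps (-2.25), Pmel (-2.14) and Ebi3 (-2.11), and in the last 3 ILn B was at the floor. At other probe sets of their genes, steps of similar or larger size were measured for Ighm (3.59, MOLF B at the floor), Pdxdc1 (-3.85, ILn B at the floor) and Saa2 (-2.94). Of the 10 genes ranked, only Saa-ps, Pmel and Ebi3 did not pass the test over all arrays. Pmel and Ebi3 were at the floor on MOLF A, so the MOLF arrays themselves differed there.

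Proliferation and metabolism lists held no gene past the test. None of 55 cell cycle and replication genes, 55 respiratory chain genes, 46 metastasis-associated genes, 39 heat shock and chaperone genes, 31 adipocyte genes, 29 glycolysis and hypoxia genes, 28 immediate early genes, 21 milk protein genes or 16 cholesterol synthesis genes passed, and the medians of these lists lay between -0.15 and 0.12. Of 35 glutathione and xenobiotic genes none passed either. Mgst1, a microsomal glutathione transferase, was 2-fold lower in every pair, at 8.01 and 7.83 in ILn against 11.44 and 9.69 in MOLF (adjusted p = 0.14). Gadd45b, a stress-induced gene, measured 6.26 and 6.20 against 9.10 and 7.52 (adjusted p = 0.38), while its other probe set differed by 0.82 in the higher direction. Kif20a, a mitotic kinesin, measured 6.45 and 6.64 against 7.81 and 7.92 (adjusted p = 0.17). At these probe sets both ILn arrays lay below both MOLF arrays; the other Kif20a probe set overlapped. Btn1a1, a milk fat globule protein, was 1.77 higher in ILn with adjusted p = 0.18.

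**Figure D5:**
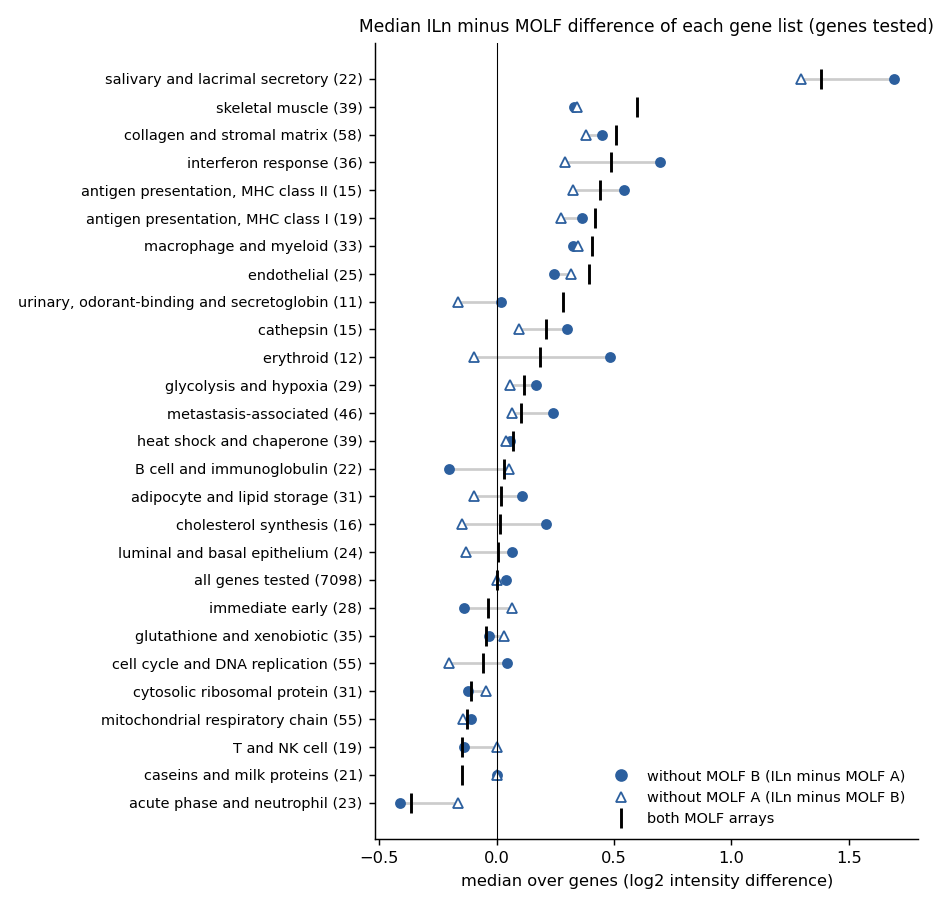
Median ILn minus MOLF difference in log2 intensity (x axis) of 26 gene lists and of all genes, with the number of genes tested in parentheses; bars use both MOLF arrays, circles MOLF A alone and triangles MOLF B alone. The salivary list lies farthest right at 1.38, the acute phase list farthest left at -0.36, and all genes sit at 0.

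The other strain names were set beside the 40 probe sets. In 26 of the 30 higher ones, all LP and NZB arrays lay below both ILn arrays, and in 7 of 30 they lay above both MOLF arrays. Of the 10 lower probe sets, 5 had all LP and NZB arrays above both ILn arrays and 7 had them below both MOLF arrays. The FVBn array was nearer ILn than MOLF in 20 of the 30 higher and in 10 of the 10 lower probe sets. These counts describe probe sets chosen for their ILn and MOLF values and carry no test. The 3′ to 5′ ratios of beta-actin and Gapdh also placed FVBn with ILn, and their part in these counts was not tested.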

How the data were processed

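The authors deposited 1 linear intensity per probe set for each array, with the summarisation of probes not given in the sources used here. Trimmed means (2% off each end) were 150.1 on all strain arrays but ILn A (500.2). The 66 control probe sets of 12488 were left out. Log2 intensities of the 9 arrays with a strain name were quantile normalised (R 4.3.3, limma 3.58.1), raised to the 30th percentile (intensity 27.0), and 9899 probe sets above it on at least 2 arrays were tested; the array without a strain name was not used. ILn was compared with MOLF in limma with a mean per strain name, eBayes with intensity trend, 4 residual degrees of freedom and Benjamini-Hochberg adjustment at 0.05; the script was tested on simulated data. All names share 1 spread, although the SD of the difference between arrays was 0.379 in ILn and 0.863 in MOLF. Gene lists used, per gene, the probe set of highest mean (7098 genes). Symbols came from the platform annotation, updated through RefSeq GRCm38.p6. Named were the 14 largest differences each way past the test, up to 4 members per list past the test (else the 2 with smallest p), the 4 markers Pip, Obp1a, Pglyrp1 and Scgb1b27, and the 5 largest each way between ILn B and MOLF B; further list members named were chosen after their values were seen. Members and lists were chosen with earlier results of these data known. Alternatives covered scaling, floor, filter, fit, blocks and left-out arrays.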

Additional observations from a re-analysis of the deposited data

How the results depend on the processing

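Under 14 alternatives all the 40 probe sets kept their direction wherever they were fitted. In all 40, both ILn arrays lay beyond both MOLF arrays. Leaving out arrays, weighting them, or changing the filter or the trend could therefore not turn their direction. Which ones passed varied. The count, and equally the count agreeing with MOLF B, was 26 with median centring (25 shared with the 40), 20 with the floor at the 10th percentile, 21 with only the 4 ILn and MOLF arrays, 6 with the title date as a block and 18 without MOLF A and NZB B. Leaving out 1 array gave 6 to 19 (6 to 14 agreeing with MOLF B, with no value when MOLF B is left out). No filter gave 49 (32 agreeing). The count of 2-fold in every pair was 342 with the lower floor and 234 to 1703 without 1 array. The array letters were also tried as a replicate block, which gave 20 for both counts, but letters did not pair the samples: A minus B differences correlated at -0.003 between ILn and MOLF. The causes were not tested. In the salivary, muscle, interferon, MHC, matrix, macrophage, endothelial and acute phase lists no alternative turned the sign of the median, which for the salivary list ranged from 1.32 to 1.71. With 2 arrays a name, the number of arrays limits every value, and values at the floor are bounds.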
